A study of Mus musculus with 6 samples.

Results

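A set of 10 genes, of 43432 gene identifiers in the count tables, with roles in the sensing of microbes and tissue damage by myeloid cells was followed in the injured spinal cord. They were chosen by symbol, with earlier results of these data known. They are the Toll-like receptors Tlr2, Tlr4, Tlr7 and Tlr13, the co-receptor Cd14, the adaptor Myd88, the C-type lectins Clec7a and Clec4e, the receptor Gpr84 and the nuclear protein Hmgb1. All 10 symbols matched 1 identifier each, and 7 of the 10 had enough counts to be tested. All mice were wildtype C57BL/6, and bulk RNA came from spinal cord tissue. The injured mice (SCI, n = 3) received a contusion to 1 side of the cord at cervical level 5 from an Infinite Horizon device set to 50 kdyn, and their tissue was taken 4 h later. The control mice (sham, n = 3) had only a laminectomy, the opening of the bone over the cord. The labels give no collection time for sham and neither sex nor age.

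Toll-like receptors are membrane proteins that bind conserved microbial molecules and some products of damaged cells. TLR2 and TLR4 sit at the cell surface, while TLR7 and TLR13 bind RNA inside endosomes, and all of these pass their signal through MYD88 to NF-kB. CD14 hands lipopolysaccharide to TLR4, Dectin-1 (Clec7a) and Mincle (Clec4e) are lectins that signal through SYK and CARD9, GPR84 is a G protein-coupled receptor for medium-chain fatty acids that inflammatory stimuli induce in macrophages and microglia, and HMGB1 is a chromatin protein that acts as a danger signal once released from cells.

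Library depth ranged from 3407176 counts in sham 3 to 11543633 in sham 2. The libraries count reads near the 3′ end of transcripts, so counts were not divided by gene length, and levels are given as CPM, counts per 1e+06 after TMM scaling between libraries. A count of 3, the limit that a count of 0 allows, was worth between 0.289 and 0.813 CPM. Markers of neurons (4205 to 6039 CPM summed over 8 genes), oligodendrocytes and astrocytes were present in every library, as the tissue label says. Every library also held liver transcripts, with 16 hepatocyte markers summing to between 47147 CPM (sham 3) and 108937 CPM (sham 2), and 6 markers of Kupffer cells, the macrophages of the liver, summing to between 119 CPM (sham 3) and 263 CPM (sham 2). The SCI libraries lay within these ranges, at 60157 to 66359 CPM for hepatocytes and 168 to 250 CPM for Kupffer cells. Sham 2 stood apart as the library with the most liver RNA. Xist (143 to 290 CPM) and the Y-linked Ddx3y (38.1 to 55.7 CPM) were both present in every library, so whether a library holds the RNA of 1 mouse cannot be told from these data, and n is the number of mice that the design text gives.

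Gpr84 and Cd14 rose after contusion, and the other tested genes did not pass the test. Gpr84 went from 0.225 ± 0.283 to 4.58 ± 1.33 CPM, and Cd14 from 2.60 ± 0.613 to 11.6 ± 3.34 CPM (SD, n = 3 mice each). These were 2 of the 7 tested genes, where 0.885% of all 13560 tested genes were called higher at an adjusted p under 0.05. None of the 7 was called lower, against 0.0442% of all tested genes. At an unadjusted p under 0.05, 4 of the 7 were higher (Gpr84, Cd14, Tlr2 and Tlr7) and none lower, where 4.27% of all tested genes were higher and 7.38% differed in either direction. The log2 fold change was above 0 for 6 of the 7, as for 49.7% of all tested genes, and its median was 0.98. Since Gpr84 and Tlr2 passed the filter only with their SCI counts, these shares describe the genes and are not a test of the set. Tlr4, Tlr13 and Clec4e had too few counts to be tested. In bulk tissue, more cells of a type and more RNA per cell cannot be told apart.

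Gpr84 lies on chromosome 15, 103308235 to 103310612 on the minus strand (GRCm38; ENSMUSG00000063234). Its counts were 1, 0 and 2 in sham 1 to 3 and 48, 33 and 16 in SCI 1 to 3. On the CPM scale these were 0.131, 0 and 0.542 against 5.80, 4.76 and 3.17. All SCI libraries were above all sham libraries, and Gpr84 was at or below the limit of 3 counts in each sham library. The gene therefore entered the test through the SCI libraries alone. The ratio of summed counts was 34.6 after scaling, with a 95% counting interval of 11.5 to 171. The log2 fold change of 4.84 ± 0.72 (SE) had a Benjamini-Hochberg adjusted p = 0.00224 in the quasi-likelihood test of edgeR. The call held without each library in turn, while the log2 fold change ranged from 3.99 without sham 2 to 6.01 without sham 3, the library with 2 of the 3 sham counts. An antisense gene on the opposite strand, Gm49482, shares 681 exon bases with Gpr84 and has no row in the count tables, and reads of the pair cannot be told apart if strand was not used in counting.

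Cd14, which encodes the co-receptor of TLR4, lies on chromosome 18, 36725067 to 36726798 (GRCm38; ENSMUSG00000051439). It had 3.02, 2.89 and 1.90 CPM in sham 1 to 3 and 9.31, 15.4 and 10.1 CPM in SCI 1 to 3. The lowest SCI library was above the highest sham library, and SCI 2 was the highest. The summed counts were 60 in sham and 235 in SCI. The log2 fold change was 2.10 ± 0.32 (SE; edgeR adjusted p = 0.00260). It stayed between 1.84 and 2.25 when each library was left out in turn, with the highest adjusted p, 0.0250, without SCI 2.

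**Figure D1:**
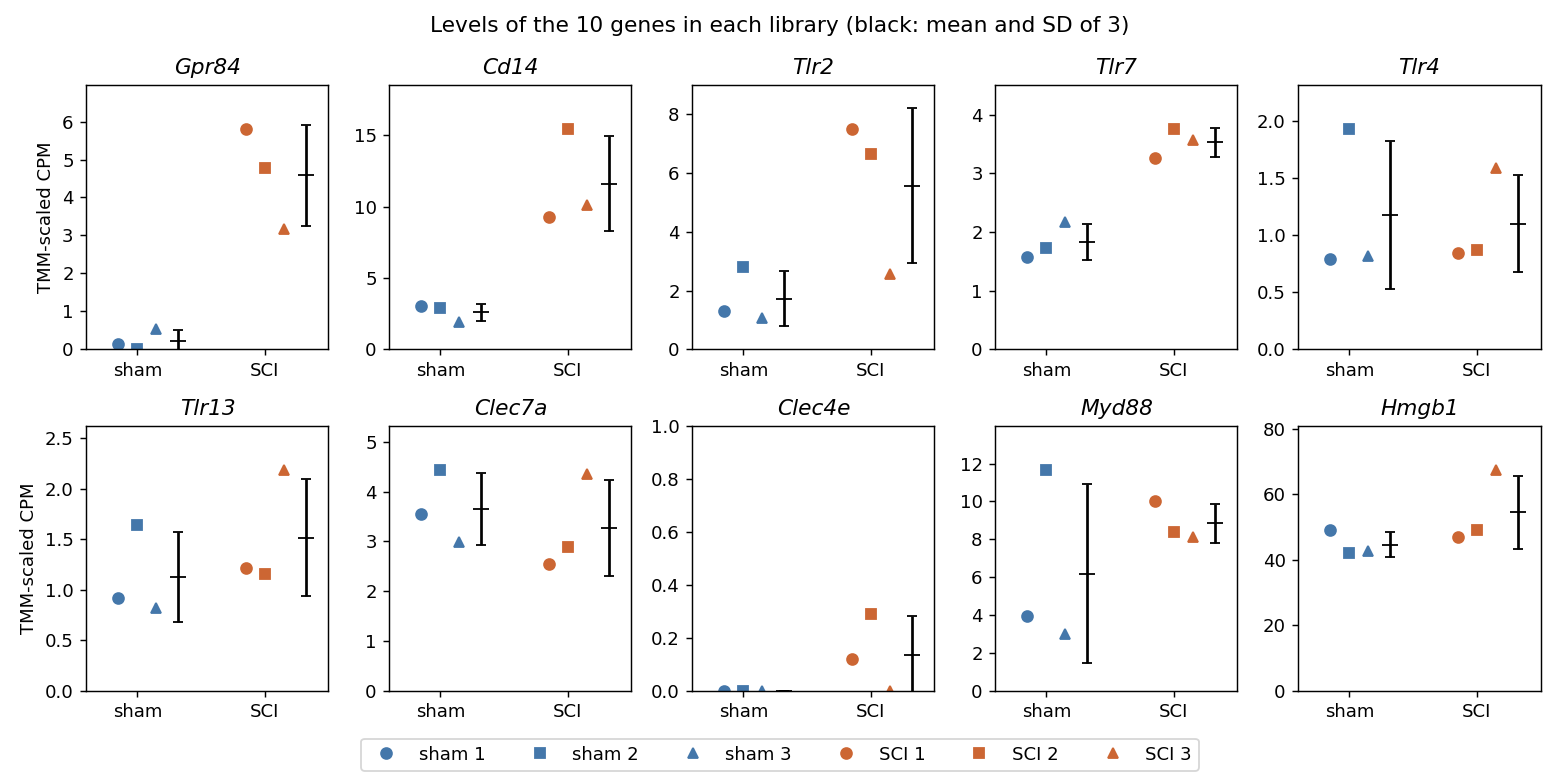
Level of each of the 10 genes in TMM-scaled CPM (vertical axes, linear, each from 0) in 3 sham libraries (blue) and 3 SCI libraries (orange), with the mean and SD in black; SD bars that pass 0 end at the axis. Gpr84 reached 3.17 to 5.80 CPM in SCI against at most 0.542 in sham, Cd14 and Tlr7 also did not overlap between groups, and the Myd88 level of sham 2 (11.7 CPM) was the highest of all libraries.

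Tlr2 recognises bacterial lipoproteins together with TLR1 or TLR6 and lies on chromosome 3, 83836272 to 83841767 (ENSMUSG00000027995). Its levels were 1.31, 2.79 and 1.08 CPM in sham 1 to 3 and 7.50, 6.64 and 2.58 CPM in SCI 1 to 3. SCI 1 and SCI 2 were above every sham library, while SCI 3 was below sham 2, so the groups overlapped. The log2 fold change of 1.60 ± 0.46 (SE) did not pass the edgeR test (adjusted p = 0.219). Tlr2 was called by edgeR when no filter on low counts was applied (adjusted p = 0.0150, where 1.04% of 21524 genes were called). It was also called with the hepatocyte sum added to the model (1.98 ± 0.48, adjusted p = 0.0349). Without sham 2 the log2 fold change was 2.19 ± 0.53 (edgeR adjusted p = 0.0560). Other settings weakened it, to 1.34 ± 0.54 without SCI 1 (adjusted p = 0.654), 1.38 ± 0.53 without sham 1 (adjusted p = 0.598) and 1.47 ± 0.53 without SCI 2 (adjusted p = 0.562). The call of Tlr2 thus depended on the setting, and its sign did not in the 14 alternatives run.

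The window before the annotated start was read for Gpr84, the gene with the larger rise, and for Tlr2, whose test result depended on the setting. RefSeq promoters (GRCm38.p6) matched 7 of the 10 genes, with 9 entries, and those not in the table are Tlr4, Tlr7 and Cd14. In the 250 bases before the RefSeq start, both strands were searched for the NF-kB motif, for the AP-1 motif TGANTCA and for the PU.1 core GAGGAAG. The stretches below run 5′ to 3′ on the minus strand, the strand of each gene, and end where the GENCODE M21 gene model begins; capitals mark the NF-kB motif. They are 76 bases at chr15:103310613-103310688 for Gpr84 and 91 bases at chr3:83841768-83841858 for Tlr2.
Gpr84: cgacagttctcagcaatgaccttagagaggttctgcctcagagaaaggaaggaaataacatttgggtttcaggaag
Tlr2: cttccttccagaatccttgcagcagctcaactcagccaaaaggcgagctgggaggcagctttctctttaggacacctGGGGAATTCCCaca
The NF-kB motif was found in 1 of the 7 genes, Tlr2, as 3 matches that overlap each other between 163 and 173 bases before the start. It was present in 7.25% of 32851 RefSeq promoters of the same length. The AP-1 motif was in none of the 7 (6.75% of all promoters), and the PU.1 core was in Tlr13 (10.6% of all promoters). A match describes the letters in this window only. The windows of Myd88 and Hmgb1 held 0 bases before the outermost start of their GENCODE gene models. Of the 250 bases, 159 for Tlr2 and 174 for Gpr84 lay in GENCODE exons of the gene.

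The endosomal receptors Tlr7 and Tlr13 both lie on chromosome X, at 167304929 to 167330558 and 106143204 to 106160493 (ENSMUSG00000044583 and ENSMUSG00000033777). Tlr7, a receptor for single-stranded RNA, had 1.58, 1.73 and 2.17 CPM in sham 1 to 3 and 3.26, 3.75 and 3.57 CPM in SCI 1 to 3. Its groups did not overlap, and the spread within each was small. The log2 fold change of 0.98 ± 0.40 (SE) did not pass the test (edgeR adjusted p = 0.559). Of the 7 tested genes, 3 (Gpr84, Cd14 and Tlr7) had every SCI library above every sham library, where 7.73% of all tested genes did. None had every SCI library below every sham library (5.94% of all tested genes). Tlr13, which binds bacterial ribosomal RNA, had 0.919, 1.64 and 0.813 CPM in sham and 1.21, 1.15 and 2.18 CPM in SCI. Its 27 sham and 29 SCI counts gave a ratio of 1.15 with a 95% counting interval of 0.658 to 2.02, and the groups overlapped.

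Tlr4, the lipopolysaccharide receptor on chromosome 4 (66827584 to 66930284; ENSMUSG00000039005), had 29 counts over the sham and 21 over the SCI libraries. Its levels were 0.788, 1.93 and 0.813 CPM in sham and 0.846, 0.866 and 1.59 CPM in SCI, with sham 2 highest. The ratio was 0.776 with a 95% counting interval of 0.421 to 1.41, which covers counting error only, as do the other counting intervals. In the fit without a filter, its log2 fold change was -0.21 ± 0.68 (edgeR adjusted p = 0.965) and that of Tlr13 was 0.32 ± 0.64 (adjusted p = 0.943). At 3 to 20 counts a library, a change of either gene larger than these errors could also go uncalled. In the same fit Tlr7, at 0.98 ± 0.48, was not called (edgeR adjusted p = 0.650).

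Because CD14 and TLR4 act as a pair, and TLR2 and TLR4 share their adaptor, the genes were also compared within libraries. The log2 ratio of Cd14 over Tlr4 counts was 1.85, 0.57 and 1.10 in sham 1 to 3 and 3.37, 4.05 and 2.60 in SCI 1 to 3. The SCI ratios were all above the sham ratios, by 2.16 on average (exact two-sided permutation test, p = 0.1, the smallest that 3 against 3 can give, and 0.267 after adjustment over 4 pairs). The log2 ratio of Tlr2 over Tlr4 was 0.69, 0.53 and 0.36 in sham and 3.06, 2.84 and 0.67 in SCI. The SCI mean was higher by 1.66 but SCI 3 lay among the sham values (exact permutation p = 0.2, adjusted 0.267). Tlr7 over Tlr13 differed by 0.54 between the groups, which overlapped (exact permutation p = 0.3, adjusted 0.3), and with 1 library left out it ranged from 0.23 (without sham 2) to 0.83 (without sham 3), with 0.34 for SCI 2 and 0.82 for SCI 3 left out.

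Myd88, the adaptor shared by these receptors, lies on chromosome 9, 119335934 to 119341411 (ENSMUSG00000032508). It had 3.94, 11.7 and 2.98 CPM in sham 1 to 3 and 10.03, 8.37 and 8.13 CPM in SCI 1 to 3. Sham 2 was above every SCI library, and the other sham libraries were below all of them. With all libraries the log2 fold change was 0.43 ± 0.39 (SE; edgeR adjusted p = 0.900), and without sham 2 it was 1.31 ± 0.34 (adjusted p = 0.0927). Sham 2 also had the highest hepatocyte sum, and in the model that holds this sum the value was 1.05 ± 0.31 (adjusted p = 0.109). Myd88 was not called under any setting run. It shares 290 exon bases on the opposite strand with Acaa1a, a peroxisomal enzyme gene. Acaa1a had 64.7, 77.2 and 50.2 CPM in sham 1 to 3 and 60.1, 59.9 and 99.3 CPM in SCI 1 to 3. Within sham, both genes were highest in sham 2 and lowest in sham 3. Within SCI, Acaa1a was highest in SCI 3, where Myd88 was lowest. The part of the overlap in the Myd88 counts was not tested.

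Among the lectins, Clec7a (Dectin-1, a receptor for fungal beta-glucan) had 3.55, 4.43 and 2.98 CPM in sham and 2.54, 2.89 and 4.36 CPM in SCI. The groups overlapped and the log2 fold change was -0.22 ± 0.37 (SE; edgeR adjusted p = 0.964). Clec7a lies on chromosome 6, 129461591 to 129472779 (ENSMUSG00000079293), and GENCODE M21 lists it as a polymorphic pseudogene. Clec4e (Mincle, a receptor for the nuclear protein SAP130 and for mycobacterial glycolipid), on the same chromosome at 123281789 to 123289870 (ENSMUSG00000030142), had 0 counts in sham 1 to 3 and 1, 2 and 0 counts in SCI 1 to 3. Both group sums were at or below the limit of 3 counts, so no fold change is given, and whether Clec4e changed was not detectable at this depth.

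Hmgb1 was the most abundant of the genes, with 44.7 ± 3.86 CPM in sham against 54.5 ± 11.2 CPM in SCI. Its levels were 49.1, 42.1 and 42.8 CPM in sham 1 to 3 and 47.0, 49.1 and 67.4 CPM in SCI 1 to 3. SCI 3 was the highest, and the other SCI libraries lay within or at the edge of the sham range. The log2 fold change was 0.28 ± 0.19 (SE; edgeR adjusted p = 0.837). Hmgb1 lies on chromosome 5, 149046702 to 149184489 (ENSMUSG00000066551). GENCODE M21 lists 14 pseudogenes named as copies of it, 12 of which have rows in the tables with 122 counts in all, against 2038 for Hmgb1, so its counts are uncertain where reads match several copies.

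The order of levels differed between the groups. In sham, Hmgb1 was above all others, and from Myd88 (6.19 ± 4.75 CPM) through Clec7a, Cd14, Tlr7, Tlr2 and Tlr4 to Tlr13 (1.12 ± 0.448 CPM) each gene's range over libraries overlapped that of the next. Gpr84 was below Tlr13 without overlap. In SCI, Cd14 stood second to Hmgb1 with a range that overlapped that of Myd88, and Gpr84 lay between Tlr2 and Tlr7, overlapping both. Tlr13, Tlr4 and Clec4e were the lowest in SCI.

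**Figure D2:**
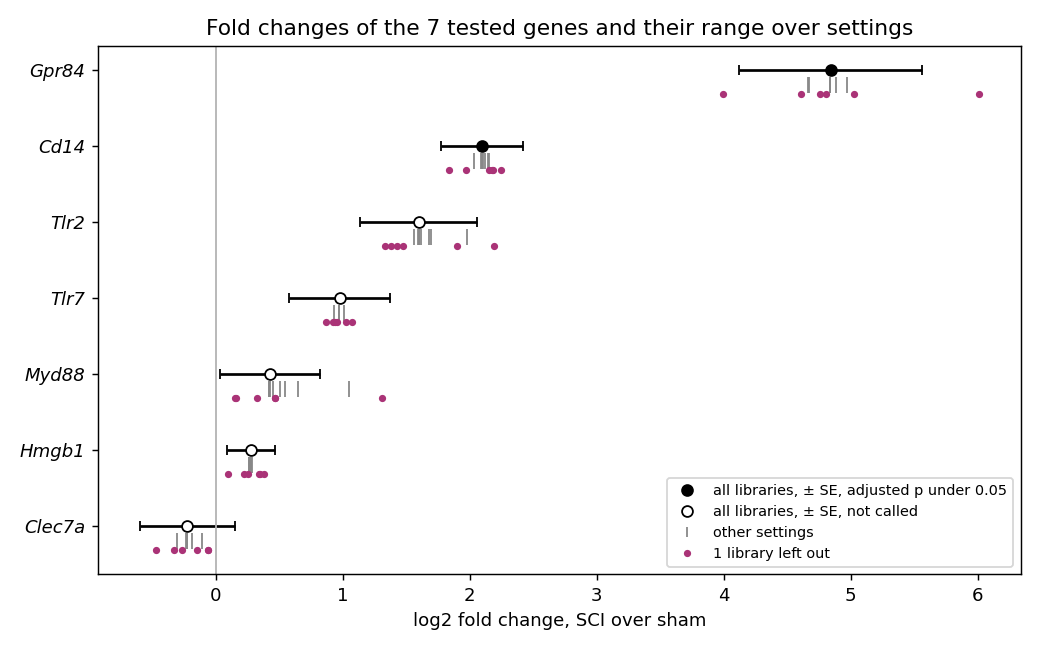
Log2 fold change of SCI over sham (horizontal axis) of the 7 tested genes, with all 6 libraries as circles with SE (filled where the edgeR adjusted p is under 0.05), other settings as grey ticks and fits without 1 library as purple dots. Cd14 stayed between 1.84 and 2.25, Gpr84 ranged from 3.99 to 6.01, and Myd88 moved from 0.43 to 1.31 without sham 2.

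The receptor counts were also set against 12 genes shared by microglia and other macrophages, among them Csf1r, Aif1 and C1qa, which summed to 464 to 546 CPM in sham and 513 to 633 CPM in SCI. Kupffer cells, whose markers were in every library, are also macrophages, and their part in this sum was not tested. None of these 12 genes was called. Per 1000 counts of these genes, Cd14 had 5.63, 5.29 and 4.09 counts in sham 1 to 3 and 18.2, 28.9 and 16.0 in SCI 1 to 3. Gpr84 had 0.245, 0 and 1.17 in sham and 11.3, 8.91 and 5.01 in SCI. The groups did not overlap for either gene on this scale, with log2 differences of 1.99 for Cd14 and 4.49 for Gpr84 (exact permutation p = 0.1 each, the smallest possible, and 0.333 after adjustment over the 10 genes). The Gpr84 difference was 3.47 without sham 2, 5.49 without sham 3 and 3.96 with a pseudocount of 1, while that of Cd14 stayed between 1.74 and 2.16. Tlr7 per 1000 such counts was 3.60 ± 0.941 in sham and 6.34 ± 0.693 in SCI without overlap (exact permutation p = 0.1, adjusted 0.333). Tlr2 was at 3.30 ± 1.57 and 10.4 ± 5.57 with overlap (exact permutation p = 0.2, adjusted 0.4).

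Markers of other myeloid cells and of blood were also read, and most of the myeloid ones were not called. The 13 neutrophil markers summed to 20.1 to 53.3 CPM in sham and 58.4 to 80.3 CPM in SCI, without overlap (exact permutation p = 0.1, and 0.65 after adjustment over 13 marker lists). None of the 13 was at 0 over all libraries, most of the sum came from S100a8 and S100a9, and the defining Ly6g had 0 to 4 counts in a library. Of 7 tested neutrophil markers none was called. S100a8 and S100a9 were called by edgeR without a filter (adjusted p = 0.00134 and 0.000786), and also with the hepatocyte covariate, the settings under which Tlr2 was called, and without sham 2. Of 8 tested monocyte markers, Thbs1 and Emilin2 were called higher, while Ccr2 and Ly6c2 had too few counts to be tested. The median log2 fold change of these 8 was 0.16, with 5 above 0 and 3 below. The monocyte sum (528 to 1105 CPM in sham and 745 to 982 CPM in SCI) came mostly from Fn1 and F10, genes that liver also expresses and that were, in sham, highest in sham 2 and lowest in sham 3 like the hepatocyte sum, so it is no measure of monocytes here. The summed erythroid markers ranged from 611 to 841 CPM in sham and, without overlap, from 1584 to 4282 CPM in SCI (exact permutation p = 0.1, adjusted 0.65), and all 5 tested ones were called higher. Of 11 tested microglial markers 1 was called, P2ry12, a purine receptor of resting microglia, which was at 7.74 ± 1.09 CPM in sham and fell to 2.02 ± 0.876 CPM (-1.91 ± 0.37 on the log2 scale, edgeR adjusted p = 0.0157), while the sum of the 12 microglial markers overlapped between groups. Neutrophils and monocytes also carry CD14, TLR2 and GPR84, and the part of these cells, of blood and of microglia in the rise of Gpr84 and Cd14 was not tested.

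**Figure D3:**
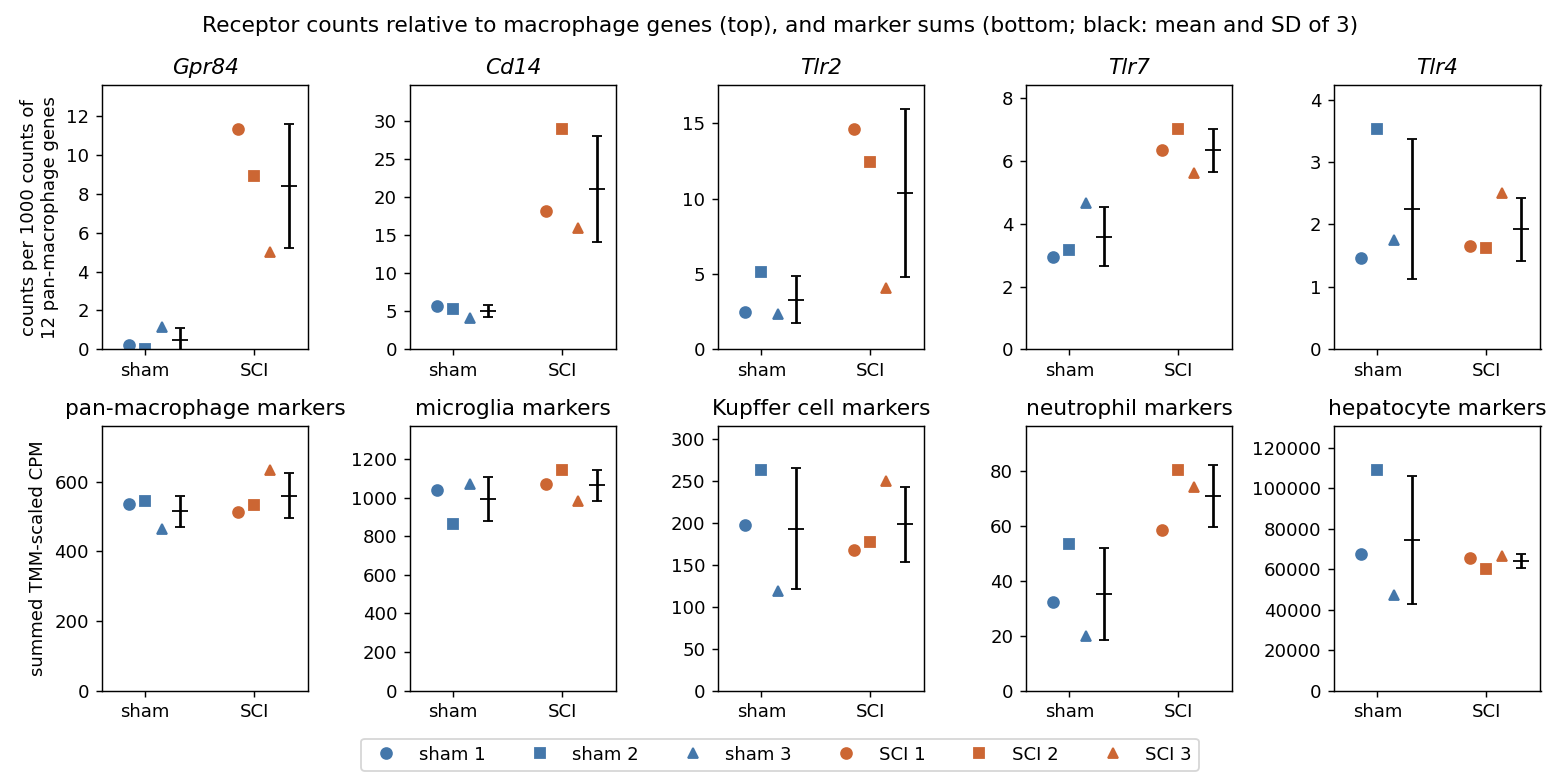
Top row, counts of 5 receptors per 1000 counts of 12 pan-macrophage genes in each library; bottom row, summed TMM-scaled CPM of 5 marker lists, each on a linear axis from 0, with the mean and SD of 3 in black. Gpr84 and Cd14 separated the groups relative to macrophage genes, the pan-macrophage sums overlapped (464 to 546 and 513 to 633 CPM), and neutrophil sums were higher in each SCI library.

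Of 100 further genes of damage sensing in 6 lists, 74 were tested, and 10 were higher and none lower in SCI. All 10 were in the list of genes that MyD88 and NF-kB signalling induces, where 10 of 16 tested genes were called and the median log2 fold change was 1.99 (all tested genes had a median of -0.0025, and 0.929% were called in either direction). Of the called genes, Ccl3, Ccl4, Cxcl2 and Ptgs2 had at most 5 counts over the sham group, and Ccl2, Cxcl10 and Socs3 had 9, 22 and 56. These genes did not pass the filter on their sham counts and entered the test with the SCI libraries. The count of 10 of 16 and the median thus describe the genes that could be tested and are no support for a change of the list. The called genes were the chemokines Ccl2, Ccl3, Ccl4, Cxcl1, Cxcl2 and Cxcl10, the cyclooxygenase Ptgs2, the interleukin-1 receptor antagonist Il1rn, and the feedback inhibitors Socs3 and Nfkbia. Many of them also respond to cytokines and to other pathways. Ccl3, a chemokine made by activated microglia and macrophages, had 0.263, 0.289 and 0 CPM in sham 1 to 3 and 35.1, 22.4 and 17.0 CPM in SCI 1 to 3 (log2 fold change 6.67 ± 0.47, edgeR adjusted p = 6.40e-06). Ccl4 was at 0.131, 0.0963 and 0 CPM in sham and at 9.19, 10.1 and 4.96 CPM in SCI (6.22 ± 0.61, edgeR adjusted p = 6.37e-05). Like Gpr84, both were near 0 in each sham library and highest in SCI 1 or SCI 2. Ptgs2 had 0 counts in sham and 101 after contusion, at least 36.1-fold more than the limit of 3 counts over the sham group (edgeR adjusted p = 0.000441). Il1rn, which blocks the interleukin-1 receptor, rose to 13.8, 13.4 and 14.3 CPM in SCI from 4.86, 4.62 and 2.17 CPM in sham (edgeR adjusted p = 0.00454). Nfkbia, the inhibitor that holds NF-kB in the cytoplasm, was at 127 ± 39.8 CPM in sham and rose to 268 ± 22.3 CPM in SCI (1.07 ± 0.23, edgeR adjusted p = 0.0326). The call of Nfkbia was lost without any 1 of sham 1, SCI 1, SCI 2 or SCI 3. Socs3 was lost with limma voom and without sham 1, SCI 1 or SCI 2, Ccl2 without sham 1 or SCI 2, and Cxcl1 without sham 1, so that 6 of the 10 were called without sham 1. Sod2, a mitochondrial enzyme and one of the most abundant of this list with Nfkbia, was at 138 ± 43.7 CPM in sham against 108 ± 5.34 CPM after contusion (edgeR adjusted p = 0.813).

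None of the 58 tested genes of the other 5 lists was called, and their list medians were between 0.09 and 0.25 on the log2 scale. Of the other Toll-like receptors only Tlr3, a receptor for double-stranded RNA, had enough counts, with a mean of 8.35 ± 1.48 CPM in sham against 8.73 ± 1.07 CPM after contusion (edgeR adjusted p = 0.980). Tlr9 and Tlr11 had no count in any library. Tlr12, too low to be tested, had 36 counts in sham against 10 after contusion (ratio 0.298, 95% counting interval 0.132 to 0.612; adjusted p = 0.620 by edgeR without a filter). Among 18 tested co-receptors, adaptors and kinases of the pathway, the most abundant were Hsp90b1, the chaperone of Toll-like receptors (log2 fold change -0.16 ± 0.20), and Lbp, the lipopolysaccharide-binding protein made by liver (0.04 ± 0.28). In the lectin arm, the signalling adaptors Tyrobp and Fcer1g had log2 fold changes of 0.47 ± 0.20 (edgeR adjusted p = 0.606) and 0.25 ± 0.23 (adjusted p = 0.897). Of other damage receptors, the scavenger receptor Scarb1 and the ATP-gated channel P2rx4 had log2 fold changes of 0.02 ± 0.25 and -0.14 ± 0.26. Among danger ligands, S100b and Fn1 had log2 fold changes of 0.19 ± 0.24 and -0.14 ± 0.27. Hmgb2, the nearest relative of Hmgb1 in the lists, had 1.15 ± 0.38 (edgeR adjusted p = 0.359).

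**Figure D4:**
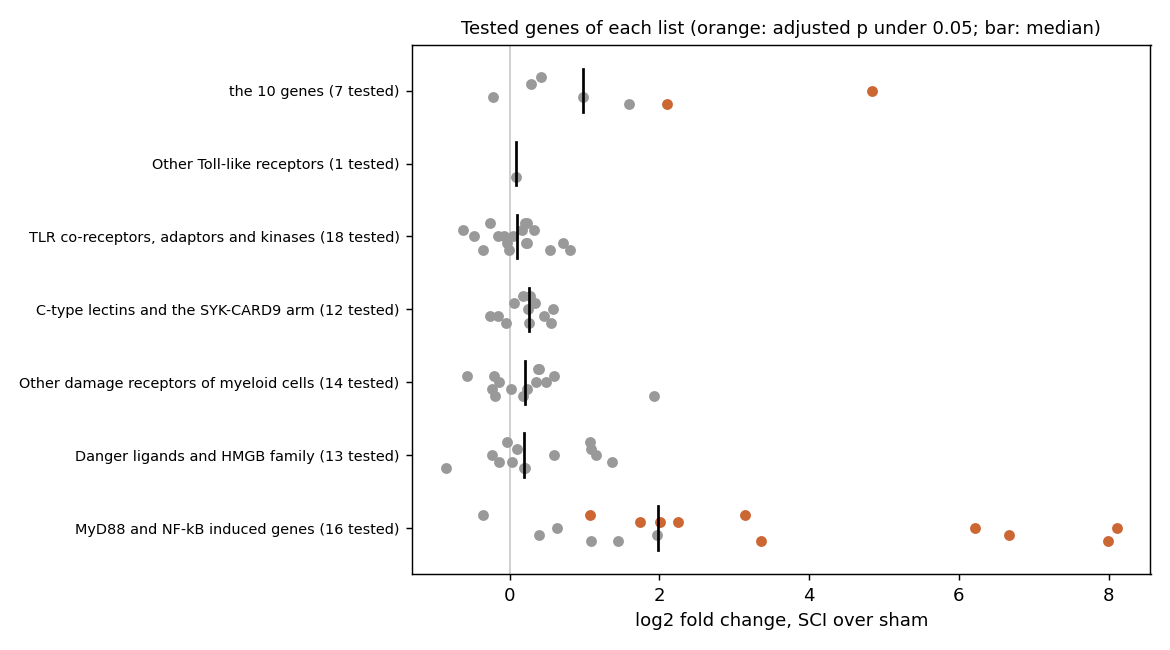
Log2 fold change of SCI over sham (horizontal axis) for every tested gene of the 10 followed genes and of 6 lists (rows), orange where the edgeR adjusted p is under 0.05, with the median of each row as a black bar. Calls lie in the top row (Gpr84 and Cd14) and in the bottom row, the MyD88 and NF-kB induced genes with a median of 1.99.

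Among 10470 tested genes with a mean of at least 5 CPM, those closest to Cd14 in pattern over the 6 libraries were Thbd and Tm4sf1, by the root mean square difference of centred log2 CPM (0.18 for each). Thbd, the thrombomodulin of endothelium, went from 5.62 ± 1.07 to 22.1 ± 2.53 CPM, and Tm4sf1, a membrane protein of endothelium, from 5.46 ± 1.95 to 19.3 ± 4.08 CPM. Closest to Gpr84 were Map3k6, a kinase, and the transcription factor Atf3, at larger differences of 0.57 and 0.62. Map3k6 went from 1.66 ± 0.684 to 11.9 ± 2.62 CPM and Atf3 from 1.79 ± 0.841 to 17.2 ± 0.499 CPM. The log2 CPM used a prior count of 2. Genes with a mean below 5 CPM were not compared, so genes as low as Gpr84 could not be among its closest. These distances describe 6 libraries that share their groups and depths, and no test was made on them.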

How the data were processed

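RNA of 6 spinal cord samples was sequenced as single-end reads of 50 bases from Lexogen QuantSeq Forward libraries, per the labels' protocols and design text. The authors deposited whole-number read counts per Ensembl gene, not normalized, 1 table per sample. Reads were aligned with STAR 2.7.2b to mm10 (GRCm38), per the labels' design text, and DESeq2 1.24.0 is among the tools in the submitters' processing notes. For the counting tool, the strand setting and reads with several matches, nothing is given in the sources used here. Symbols matched 42462 of 43432 identifiers, and positions came from GENCODE M21.

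Genes passing edgeR's filterByExpr (13560 of 21524 with a count) entered a robust quasi-likelihood fit in edgeR 4.0.16 (R 4.3.3) with TMM factors, 1 coefficient for SCI over sham, and Benjamini-Hochberg adjustment over all of them, called under 0.05. Log2 fold changes use a prior count of 0.125, and the SE is the absolute log2 fold change over the square root of F. Ratios between genes of a library used a pseudocount of 0.5 and an exact two-sided permutation test. Libraries were treated as animals because the design text gives 3 mice per group, although each holds both Xist and Y-linked transcripts, which leaves in doubt that it is RNA of 1 mouse. No pair of a group agreed within sampling noise (chi-square per degree of freedom 6.97 to 38.0). The procedure was tested on simulated data. Alternatives were other scalings and filters, DESeq2 1.42.0, limma 3.58.1 voom, a replicate block, a hepatocyte covariate and leaving out each library. The genes, lists and tests were chosen with earlier results of these data known. Named are the 10 genes, those called and the 2 most abundant of each of the 6 lists, the 2 tested genes of at least 5 CPM most alike to each called gene, and defining markers; others named were chosen after their values were seen.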

Additional observations from a re-analysis of the deposited data

How the results depend on the processing

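Gpr84 and Cd14 kept their direction and their call in all 14 alternatives, with adjusted p-values of at most 0.0266 and 0.0250 by edgeR, DESeq2 or limma voom. No other of the genes was called by any alternative except Tlr2, without a filter and with the hepatocyte covariate. All 7 log2 fold changes kept their sign. The sums over all genes were less stable. With no filter 182 genes were higher and 42 lower, and 18 genes of the 6 pathway lists were higher, against 120, 6 and 10. With the hepatocyte covariate 189 were higher and 23 lower, DESeq2 called 11 lower, and the replicate block 1 lower. Leaving out 1 library gave 62 (without sham 1) to 132 higher genes, 1 (without sham 1) to 14 (without sham 3) lower genes, and 6 (without sham 1) to 13 pathway genes. The cause was not tested. Tlr4 relative to the pan-macrophage genes was -0.17 (log2), and ranged from -0.43 (without sham 1) to 0.16 (without sham 2) when 1 library was left out. Replicate numbers were not used as pairs outside the replicate block. Deviations of same-numbered libraries correlated at -0.08, -0.07 and -0.17, which with 3 libraries a group cannot tell whether the samples were paired. With the replicate block 81 genes were higher, Gpr84 and Cd14 were called (edgeR adjusted p = 0.0266 and 0.0188), and Nfkbia was not; no library correlated best with its own number. Depth limits the result for Tlr4, Tlr13 and Clec4e, which had at most 29 counts in a group.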

Other observations

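Several low genes of the lists were chosen after their values were seen. Hcar2, Tnf, Il6 and Acod1 had counts almost only after injury and were called by edgeR in the fit without a filter. In that fit 0.846% of 21524 genes were called higher. Hcar2, the hydroxycarboxylic acid receptor of myeloid cells and, like Gpr84, G protein-coupled, had 0 counts in each sham library and 8, 11 and 9 in SCI 1 to 3 (adjusted p = 0.00290). Tnf had 2 counts in sham and 38 in SCI, a ratio of 20.4 (95% counting interval 5.26 to 174; adjusted p = 0.00794). Il6 had 0 and 24 counts (edgeR adjusted p = 0.00794), 8.57-fold a limit of 3 counts over the sham group after scaling. The lower 95% counting limit of its ratio was 6.45. Acod1, the itaconate-producing enzyme of activated macrophages, had 0 and 20 counts (edgeR adjusted p = 0.0350), 7.14-fold the same limit of 3 counts. The lower 95% counting limit of its ratio was 5.29. P2ry6, a receptor for UDP on microglia, was at 1.10 ± 0.529 CPM in sham against 4.34 ± 1.02 CPM after contusion (1.93 ± 0.46 on the log2 scale, edgeR adjusted p = 0.0769) and was called without a filter (adjusted p = 0.0125). Clec4d, the partner lectin of Clec4e, had 1 count in sham and 14 in SCI (95% counting interval of the ratio 2.28 to 634) and was not called there (adjusted p = 0.447). Trem1 had 2 and 17 counts (adjusted p = 0.447).

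Xist, which was present beside Y-linked transcripts in every library, was lowest in sham 3 and highest in sham 2, the libraries with the lowest and the highest hepatocyte sum.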
